A study of Mus musculus with 4 samples.

Results

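Mitochondrial respiration, mitochondrial protein synthesis and mitochondrial protein import are described here in eosinophils, for the 46 genes of these systems among the 5807 genes of the deposited comparison of pleural cavity with bone marrow eosinophils. Members were taken by gene symbol alone: complex I (Nduf), succinate dehydrogenase (Sdha to Sdhd), complex III (Uqcr), cytochrome c (Cycs), cytochrome c oxidase (Cox followed by a digit), ATP synthase (Atp5), the large and small mitochondrial ribosome subunits (Mrpl, Mrps), the outer and inner membrane translocases (Tomm, Timm) and the mitochondrially encoded genes (mt-). Both groups were wild-type (WT) mice given LLC, the Lewis lung carcinoma cell line of the mouse, and the samples were eosinophils of bone marrow (BM) and of pleural lavage fluid (MPE, for malignant pleural effusion), with 2 libraries per tissue. The study's methods give C57BL/6 and BALB/c as its wild-type strains without naming the one sequenced here, and animals of 6 to 8 weeks. Pleural lavage cells were taken on day 2, by a figure legend on the sequencing. Those methods describe bone marrow of tumor-bearing mice, while the study's main text calls these cells naïve. The sorting gates also differed, since high Gr1 and CD11c were excluded, and CD11b was required, in the pleural cavity gate only. Enrichment with magnetic beads before sorting also used a different antibody in each tissue. Tissue, enrichment and gate therefore cannot be told apart.

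The respiratory chain passes electrons from NADH and succinate through complexes I to IV to oxygen, and ATP synthase uses the resulting proton gradient. Most subunits are encoded in the nucleus, made in the cytosol and brought in through the TOM complex of the outer membrane and the TIM complexes of the inner membrane. A small set of core subunits is encoded by mitochondrial DNA and translated on mitochondrial ribosomes, whose proteins are themselves imported. Eosinophils, like other granulocytes, rely strongly on glycolysis but keep functional mitochondria.

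All values below are the authors' mean reads per gene over the libraries of a tissue, so no spread between libraries, no interval and no test can be given for any gene. A ratio below is the log2 of the pleural cavity mean over the bone marrow mean, after each was divided by the total of the listed genes in its tissue. That total was 15947438 reads for the pleural cavity and 11762543 for the bone marrow. These totals cover the listed genes and are not library depths. Every gene in the table is one that the authors list as differentially expressed, and no listed gene had a ratio between -0.47 and 0.18. That empty band is 0.65 wide under any single scaling of these means, whereas the 2-fold cut in either direction named for the listing would leave a band of 2 on the log2 scale. The listing was therefore not a 2-fold cut on the ratios given here, and a gene's direction here need not be its direction in the listing. This bears most on the genes with small ratios above 0, all higher members among them. An absent gene therefore has no direction here, and a split of members into higher and lower is fixed in part by that selection. In bulk RNA, fewer cells of a type and less RNA per cell cannot be told apart.

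Of the 46 listed members, 19 had a higher scaled mean in the pleural cavity and 27 a lower one, and the median log2 ratio was -0.63. By comparison, 42.5% of all 5807 listed genes were higher, and their median was -1.02. The study's text counts a much smaller share of these genes as upregulated, so some genes that are higher here must be downregulated in its count. The upper quartile of all listed ratios was 0.68, and the study counts fewer genes as upregulated than lie above it. No higher member exceeded 0.69, so under a single scaling that gave the study's count, most or all of the 19 would be lower. The authors' own directions were not used, and which members these are was not tested. No member was at least 2-fold higher, against 16.0% of all listed genes, and 11 of 46 were at least 2-fold lower, against 50.5% of all listed genes. Under this scaling the members lay nearer 0 than listed genes at large: their median absolute log2 ratio was 0.68 and that of all listed genes 1.53. That depends on the scaling, since under the other scalings given below between 3 and 25 of the 46 members were at least 2-fold lower. The higher members lay in a narrow band from 1.26-fold to 1.61-fold. The members were also well covered. Their median was 1263.5 mean reads in bone marrow and 1388 in the pleural cavity, against 488 and 471.5 over all listed genes. Among listed genes that reached 500 mean reads in each tissue, 68.8% were higher and the median was 0.46, while of the 35 members at that level 16 were higher (45.7%) and their median was -0.54. At least 2-fold lower at that level were 14.3% of the members and 16.2% of all listed genes. The smaller share of members lower by 2-fold thus nearly vanished at that read level. The 46 members together held 0.642% of listed reads from bone marrow and 0.578% of those from the pleural cavity.

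**Figure D1:**
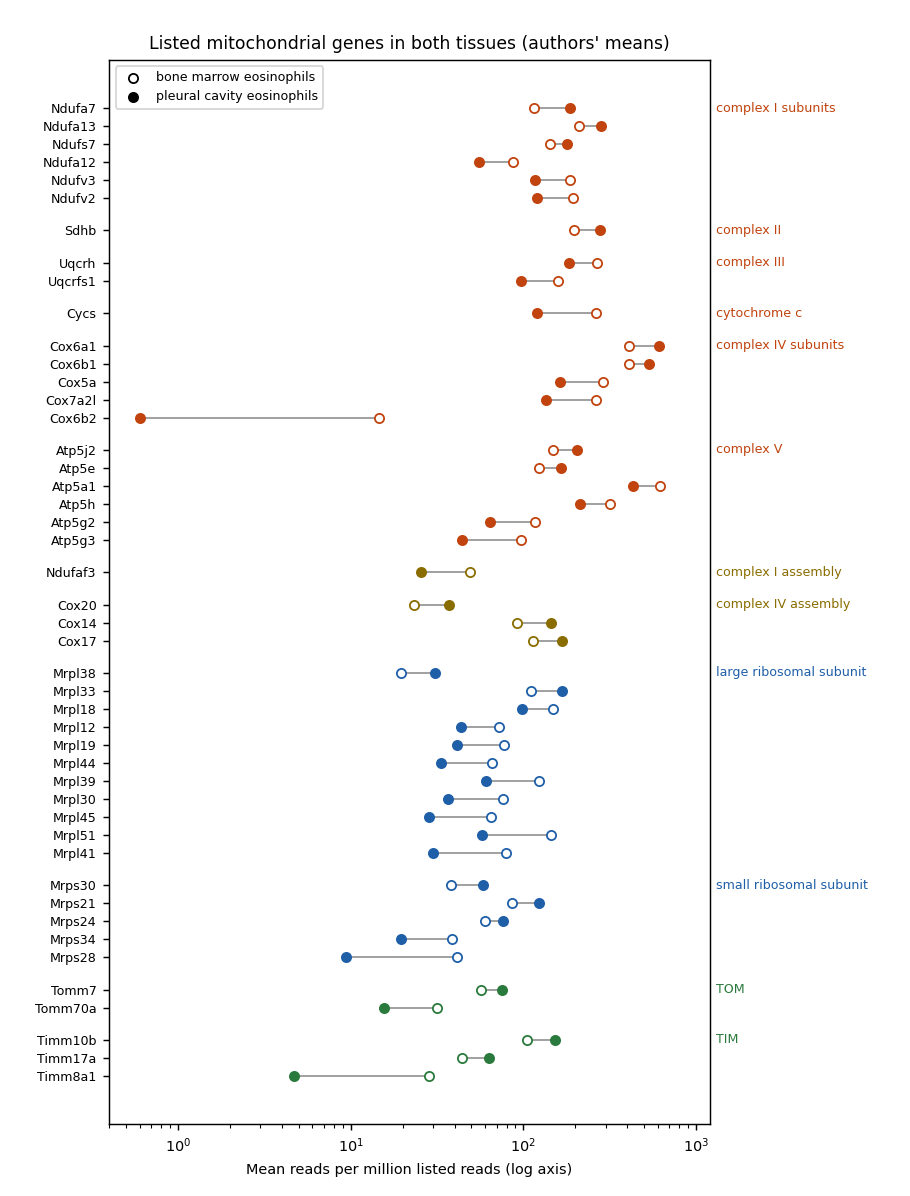
Mean reads per 1000000 listed reads of each of the 46 members (horizontal log axis) in bone marrow (open circles) and pleural cavity eosinophils (filled circles), grouped by class. Each point is the authors' mean over 2 libraries without an error. Under this scaling differences are below 2-fold for most genes and are widest for Cox6b2, Timm8a1 and Mrps28.

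**Figure D2:**
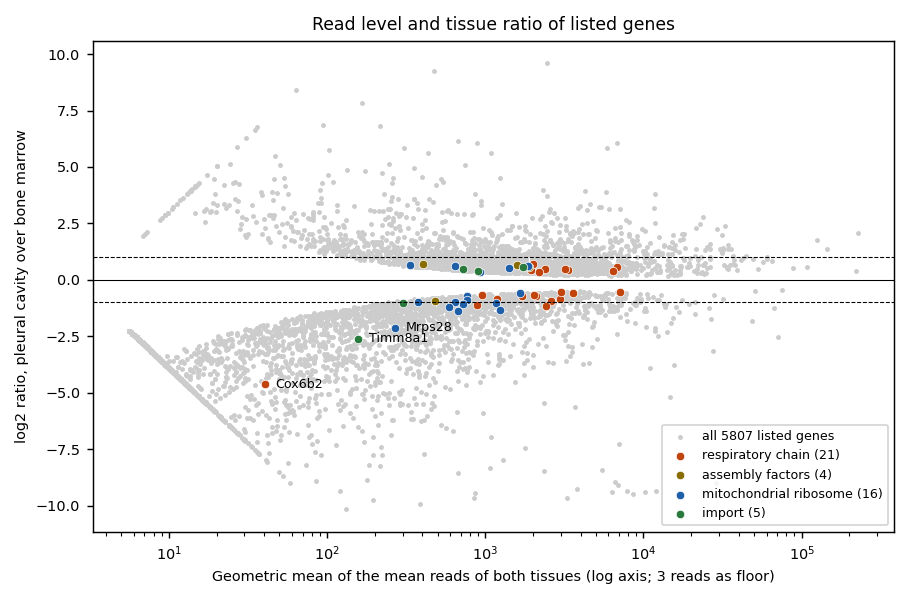
The log2 ratio of pleural cavity over bone marrow eosinophils (vertical axis) against the geometric mean of the mean reads of both tissues (horizontal log axis, 3 reads as floor), for all 5807 listed genes in grey and the members in color, with dashed lines at 2-fold. The band around 0 from -0.47 to 0.18 holds no listed gene, and most members sit close to its edges; the furthest from it are Cox6b2, Timm8a1 and Mrps28.

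Scaling bears on every direction given below. The ratio of the totals could be replaced by no scaling, which moves every log2 ratio by 0.44, by a total without the most abundant genes and the marker genes of other cells (the trimmed total), which moves it by -0.22, or by the median ratio of 1524 well-covered listed genes, which moves it by -0.44. The first and second of these turned the direction of 0 of the 46 members. That was fixed beforehand, since no member lay between -0.52 and 0.33, so it is no check on the directions. Under the median ratio 6 members, Ndufs7, Ndufa13, Cox6b1, Atp5e, Mrps24 and Tomm7, turned from higher to lower with ratios between -0.11 and -0.01, so that 13 of 46 (28.3%) were higher, against 35.8% of all listed genes. No higher member had a ratio above 0.69, so a scaling that moved the ratios down by more than that would turn all 19, and with library totals unknown the directions of the higher members hold only for the scaling named.

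**Figure D3:**
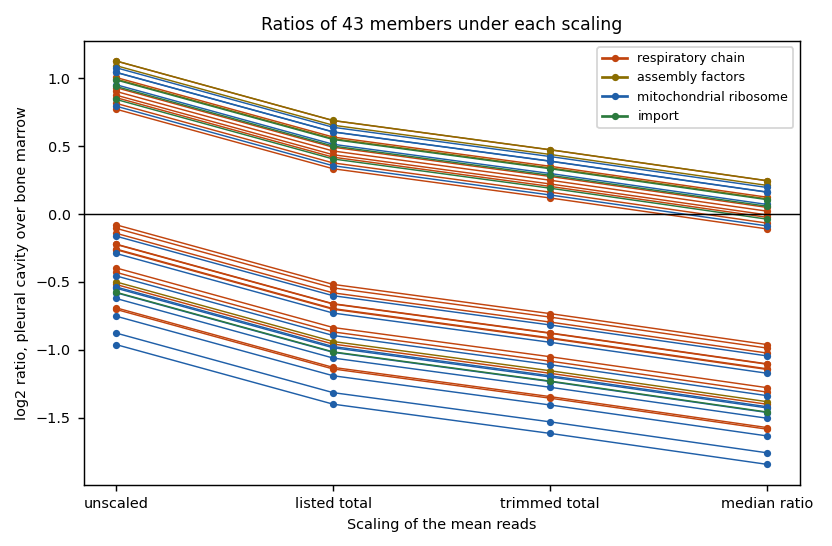
The log2 ratio of pleural cavity over bone marrow eosinophils (vertical axis) of the 43 members above -2 under each scaling of the mean reads (horizontal axis), 1 line per gene colored by group. The lower members stay below 0 under all 4 scalings, and the 6 higher members with the smallest ratios pass below 0 under the median ratio.

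Complex I, which oxidises NADH, had 6 of its 41 annotated subunit genes listed, 3 higher and 3 lower, with a median of -0.16, and no subunit reached 2-fold. Ndufa7, an accessory subunit (chromosome 17, 33824572 to 33838316), had 1350 mean reads in bone marrow and 2951 in pleural cavity eosinophils, a ratio of 0.69. Ndufa13, also known as GRIM-19, had 2470.6 and 4480.3 mean reads (0.42), and its reads were fractional, as happens when RSEM divides reads between similar sequences. The value for Ndufs7, an iron-sulfur core subunit, was 0.33 (1675.5 and 2864 mean reads), and like that of Ndufa13 its direction turns under median ratio scaling. Ndufv2 and Ndufv3 belong to the NADH-oxidising module. Ndufv2 had 2285 and 1911.5 mean reads (-0.70), and Ndufv3 had 2188 and 1873.5 (-0.66). Ndufa12 had 1030.5 and 884 mean reads, a ratio of -0.66. Ndufaf3, the only listed one of 8 complex I assembly factors, was lower at -0.94, with 573.5 mean reads in bone marrow and 405.5 in pleural cavity eosinophils. Summed reads of the 6 subunits gave a ratio of 0.005.

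The few listed genes of succinate dehydrogenase and complex III stood on opposite sides of 0. Sdhb, the iron-sulfur subunit of succinate dehydrogenase, was the single listed gene of 4 and was higher, at 0.49 (2321.5 mean reads in bone marrow and 4429.5 in pleural cavity eosinophils). Under median ratio scaling its ratio was only 0.05. Both listed genes of the 8 of complex III were lower. Uqcrfs1, which encodes the Rieske iron-sulfur protein, had a ratio of -0.70 (1864 and 1554 mean reads), and Uqcrh, the hinge protein that contacts cytochrome c, had -0.54 (3141 and 2921). Cycs, the somatic cytochrome c that carries electrons from complex III to complex IV and takes part in apoptosis when released (chromosome 6, 50562563 to 50566569), was 2.21-fold lower. It had 3105.0 mean reads in bone marrow and 1908.0 in pleural cavity eosinophils, both fractional, so reads shared with similar sequences make its value uncertain.

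Cytochrome c oxidase held the largest difference of all members. Cox6b2, the isoform of subunit VIb known from testis (chromosome 7, 4751792 to 4753094), had 171.5 mean reads in bone marrow and 9.5 in pleural cavity eosinophils, 24.5-fold lower. Its broadly expressed paralog Cox6b1 had 4831 and 8507.5 mean reads, a ratio of 0.38 that turns to -0.07 under median ratio scaling. The paralogs thus differed in direction under 3 of the 4 scalings, and Cox6b2 was lower under each. Cox6a1, another nuclear subunit (chromosome 5, 115345652 to 115348958), was 1.48-fold higher, with 4827 and 9702.5 mean reads. Cox5a had 3414 and 2593 mean reads, a ratio of -0.84, and Cox7a2l, which links complexes III and IV in supercomplexes, had 3106.5 and 2168, a ratio of -0.96. In all, 5 of 18 subunit genes were listed, 2 higher and 3 lower. The tissue-type isoforms Cox4i2, Cox6a2, Cox7a1 and Cox8b were not among the listed genes.

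Assembly factors of complex IV went one way under the scalings used. All 3 listed of 9 were higher under each of the 4 scalings, and each by less than 2-fold except without scaling, where Cox14 and Cox20 reached it. Over all listed genes 42.5% were higher under the main scaling and 35.8% under the median ratio. None of the 4 gives the study's smaller upregulated share, so their agreement does not settle the direction of these genes. Cox20, which helps mature the mitochondrially encoded subunit II (chromosome 1, 178318095 to 178322693), had 272 mean reads in bone marrow and 595 in pleural cavity eosinophils, a ratio of 0.69 and the highest of all members. Cox14, needed for synthesis of subunit I, had 1084.5 and 2315.5 mean reads (0.66). Cox17, the copper chaperone of the intermembrane space, had 1331 and 2653 (0.56).

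ATP synthase had 6 of 17 genes listed, 4 lower and 2 higher, with a median of -0.55. Atp5g3 and Atp5g2 both encode subunit c, the rotating ring, and carry the same mature protein with different import sequences. Atp5g3 (chromosome 2, 73908447 to 73912464) was 2.19-fold lower, with 1134 mean reads in bone marrow and 702.5 in pleural cavity eosinophils, and Atp5g2 was 1.83-fold lower, with 1373.5 and 1020. The third subunit c gene, Atp5g1, was not listed. Atp5h, a subunit of the peripheral stalk, had a ratio of -0.58 (3755.5 and 3405 mean reads). Atp5a1, the alpha subunit of the catalytic head, had 7265 and 6878 mean reads, a ratio of -0.52, the nearest to 0 among the lower members. Of the small subunits, Atp5j2 had 1745.5 and 3267 mean reads (0.47), and Atp5e, the epsilon subunit, had 1443 and 2650 (0.44, turning to -0.01 under median ratio scaling).

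**Figure D4:**
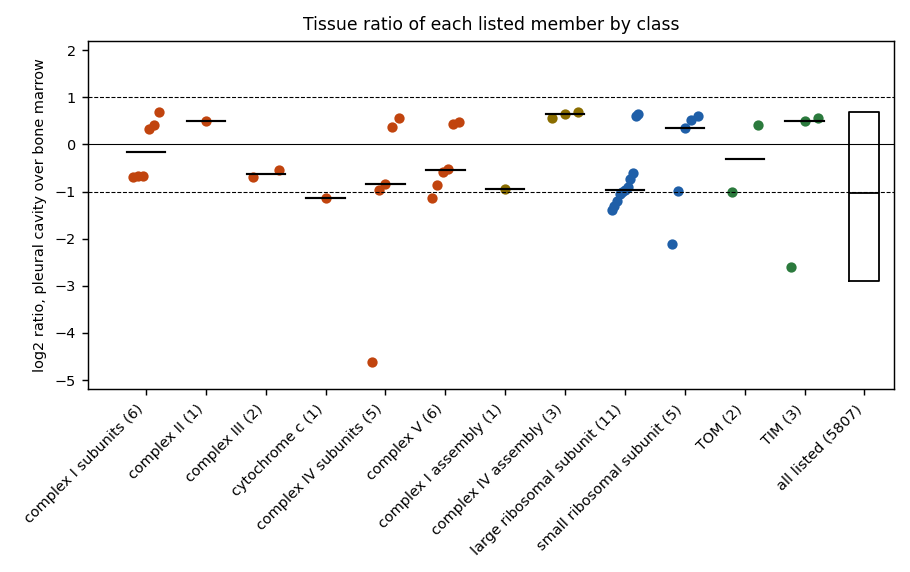
The log2 ratio of pleural cavity over bone marrow eosinophils for each listed member (points) by class, with the number of listed members in brackets and the median of each class as a bar; the box at the right gives the median and quartiles (-2.90 and 0.68) of all 5807 listed genes, and dashed lines mark 2-fold. The large ribosomal subunit lies mostly between -1.40 and -0.60, while the 3 complex IV assembly factors lie above 0.

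The mitochondrial ribosome was the group furthest below 0, with a median of -0.94 over 16 listed of 78 annotated genes, 11 lower and 5 higher. That value is close to the median of all listed genes, -1.02. All 16 reached 100 mean reads in each tissue, though, and listed genes at that level had a median of 0.44. In the large subunit 9 of 11 listed genes were lower and 5 of the 11 (45.5%) at least 2-fold. The share at least 2-fold lower was 50.5% of all listed genes and 27.8% of those at that read level. Mrpl41 (chromosome 2, 24972470 to 24975098) had 937 mean reads in bone marrow and 481 in pleural cavity eosinophils, 2.64-fold lower. Mrpl51 had 1689.1 and 919.8 mean reads (2.49-fold lower, fractional reads), and Mrpl45, which lies by the exit of the peptide tunnel, had 764 and 453.5 (2.28-fold lower). Mrpl30 had 898 and 583.5 mean reads (2.09-fold lower), Mrpl39 had 1438.7 and 962.6 (2.03-fold lower, fractional reads) and Mrpl44 had 770.5 and 531 (1.97-fold lower). The other 3 lower genes lay between -0.89 and -0.60. Against them, Mrpl38 had 231 and 488 mean reads (0.64) and Mrpl33 had 1301 and 2685.5 (0.61).

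Genes named for the small subunit were split, 3 higher and 2 lower of 5 listed. Mrps28 (chromosome 3, 8802146 to 8923857) was 4.35-fold lower, with 483 mean reads in bone marrow and 150.5 in pleural cavity eosinophils, and Mrps34 was 1.98-fold lower, with 457 and 313. Mrps30, which structures place in the large subunit despite its name, had 451 and 930 mean reads (0.61). Mrps21 had 1016.5 and 1969 (0.51), and Mrps24 had 704 and 1222 (0.36, turning to -0.09 under median ratio scaling).

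Import genes were few, 5 listed of 26. Timm8a1, an X-linked chaperone of the intermembrane space (chromosome X, 134537256 to 134541670), was 6.07-fold lower, with 333.5 mean reads in bone marrow and 74.5 in pleural cavity eosinophils. The other listed TIM genes were higher. Timm10b, a small chaperone bound to the carrier translocase, had 1226 and 2433.5 mean reads (0.55), although its listed Ensembl identifier names a read-through locus in the annotation used here. Timm17a, part of the presequence translocase, had 522 and 1002 (0.50). In the outer membrane, the receptor Tomm70a was 2.02-fold lower (370.5 and 248.5 mean reads), and Tomm7, a small regulatory subunit, had 669.5 and 1203 (0.41, turning to -0.04 under median ratio scaling). The median of 0.41 rested on these 5 genes alone. None of the 13 protein genes of mitochondrial DNA was listed, so nothing can be said of the transcripts that the chain and the ribosome share.

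Promoter windows were searched because regulators of nuclear respiratory genes recognise known letters. Windows of 250 bases before to 50 bases after the start were found in RefSeq (GRCm38.p6) for 39 of the 46 members, and both strands of every window of a gene were read. The NRF1 motif, GCGC, any base, then TGCGC, matched in 10 of these 39 members (25.6%), against 5.19% of all 27025 genes with a window and 9.50% of all listed genes. Among members the match was in 8 of 23 lower and 2 of 16 higher genes, and in 6 of 12 genes of the mitochondrial ribosome. The lower genes with a match included Mrpl12, Mrpl30, Mrpl39, Mrpl44 and Mrpl45 of the large subunit, so direction and class cannot be told apart. For no motif was a share computed over all listed lower or all listed higher genes, so a split by direction has no background here. GABPA, written as CCGGAAGT, matched in 8 of 39 (20.5%), against 4.31% of all and 6.53% of listed genes. YY1, written as AAGATGGCG, matched in 3 of 39 (7.69%), against 1.64% of all and 2.42% of listed genes, and the 3 were Atp5j2, Mrps24 and Ndufs7, all higher except under median ratio scaling, where Mrps24 and Ndufs7 turn to lower. The E-box CACGTG was found in 3 of 39 (7.69%), against 8.09% of all and 11.3% of listed genes. TCAAGGTCA, the ESRRA motif, was in 1 of 39 (2.56%), against 0.47% of all and 0.30% of listed genes. In the windows of the members 0 matches of different motifs overlapped. A match describes letters only.

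The windows below, 250 bases upstream of a RefSeq start, are shown for a pair of lower ribosome genes with NRF1 letters, a higher oxidase gene with the same letters, the lower subunit c gene with E-box and ESRRA letters (its NRF1 match lies in the 50 bases after the start, not shown), and Cox6b2, the gene with the largest difference, with no match. Capitals mark the matches. The starts used for Mrpl45 and Atp5g3 are internal ones, 793 and 1138 bases inside the RefSeq gene span, so these windows lie within the gene, and the other 3 windows precede the gene. The windows are Mrpl45 on chr11:97315466-97315715 (plus strand), Mrpl30 on chr1:37890227-37890476 (plus strand), Cox6a1 on chr5:115348959-115349208 (minus strand), Atp5g3 on chr2:73911327-73911576 (minus strand) and Cox6b2 on chr7:4753095-4753344 (minus strand), all 5′ to 3′.
Mrpl45: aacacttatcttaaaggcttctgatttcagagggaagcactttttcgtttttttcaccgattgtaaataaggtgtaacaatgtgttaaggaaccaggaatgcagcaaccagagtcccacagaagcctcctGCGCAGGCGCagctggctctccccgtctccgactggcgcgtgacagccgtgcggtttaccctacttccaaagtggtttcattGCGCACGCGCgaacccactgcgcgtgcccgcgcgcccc
Mrpl30: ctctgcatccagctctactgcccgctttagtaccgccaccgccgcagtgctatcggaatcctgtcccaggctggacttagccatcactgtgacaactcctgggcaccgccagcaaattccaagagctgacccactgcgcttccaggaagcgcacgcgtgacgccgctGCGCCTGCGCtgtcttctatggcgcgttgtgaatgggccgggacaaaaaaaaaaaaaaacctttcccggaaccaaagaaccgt
Cox6a1: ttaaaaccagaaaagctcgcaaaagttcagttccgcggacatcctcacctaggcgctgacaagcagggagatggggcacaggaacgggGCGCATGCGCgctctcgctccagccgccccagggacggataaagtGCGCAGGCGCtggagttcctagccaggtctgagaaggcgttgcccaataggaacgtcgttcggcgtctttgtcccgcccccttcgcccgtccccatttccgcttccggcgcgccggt
Atp5g3: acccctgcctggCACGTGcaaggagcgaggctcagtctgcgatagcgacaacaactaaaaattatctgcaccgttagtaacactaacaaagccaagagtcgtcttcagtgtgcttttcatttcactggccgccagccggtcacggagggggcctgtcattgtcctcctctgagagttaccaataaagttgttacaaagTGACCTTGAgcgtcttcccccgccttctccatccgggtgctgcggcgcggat
Cox6b2: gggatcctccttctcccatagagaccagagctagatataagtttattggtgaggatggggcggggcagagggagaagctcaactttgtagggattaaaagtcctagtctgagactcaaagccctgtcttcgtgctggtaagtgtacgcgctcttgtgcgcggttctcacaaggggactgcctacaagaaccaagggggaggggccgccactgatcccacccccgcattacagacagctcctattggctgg
Both Mrpl genes and Cox6a1 carry NRF1 letters, and they stood on opposite sides of 0.

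Transcripts of the regulators themselves did not share a direction. Nrf1 had 1391.2 mean reads in bone marrow and 2569.8 in pleural cavity eosinophils (0.45, fractional reads), and Gabpa had 817.0 and 1497.2 (0.43, fractional reads, turning to -0.01 under median ratio scaling). Tfe3, a regulator of lysosomal and mitochondrial genes, had 443 and 1010 (0.75). Myc, which drives growth and mitochondrial biogenesis in dividing cells, was 14.6-fold lower, with 2591 and 240.5 mean reads. Ppargc1a, the coactivator PGC-1 alpha, had 50.9 mean reads in bone marrow and 1 in pleural cavity eosinophils, too few for a fold. In all, 5 of 10 biogenesis regulators were listed, 3 higher and 2 lower.

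Other mitochondrial genes were described by 6 further lists, and with the regulators 35 of 155 genes were listed, 17 higher and 18 lower, of which 1 was at least 2-fold higher and 13 at least 2-fold lower (37.1%). The shares over all listed genes were 42.5% higher, 16.0% at least 2-fold higher and 50.5% at least 2-fold lower. The mitochondrial tRNA synthetases, which charge tRNAs for the mitochondrial ribosome, were lower in all 4 listed of 16, each by at least 2-fold, although without scaling Lars2 was at less than 2-fold. Nars2 had 159 mean reads in bone marrow and 44 in pleural cavity eosinophils (4.90-fold lower). The other 3 lay between -1.54 and -1.21. Of the translation factors 2 of 21 were listed, Guf1 at -1.41 and Mrm1, a ribosomal RNA methyltransferase, at 0.82.

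Genes of mitochondrial DNA maintenance and transcription were higher in 4 of 5 listed of 21. Dguok, which salvages purine deoxynucleosides, had 675 and 1772 mean reads (0.95), and Polrmt, the mitochondrial RNA polymerase, had 215 and 530.5 (0.86). Rrm2b had a ratio of 0.86, and Mpv17 had 0.85 with fractional reads. Ssbp1, the mitochondrial single-strand binding protein, was 1.92-fold lower. Chaperones, proteases and further import genes were lower in 6 of 8 listed of 31, with Hspe1, the chaperonin partner of Hspd1, at 565.5 and 255 mean reads (3.01-fold lower) and the protease Lonp1 at 515.5 and 288 (2.43-fold lower). The other 4 lower genes lay between -0.97 and -0.74. Chchd4, the oxidoreductase of the disulfide import route, had 463 and 1262.5 (2.01-fold higher, a ratio of 1.01 that was 0.79 under the trimmed total and 0.56 under the median ratio, both below 2-fold), and Yme1l1, a protease of the inner membrane, had 0.78.

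Outside the regulators, the widest difference in these lists was in a cristae gene. Chchd3, a subunit of the MICOS complex that shapes cristae, had 9398.0 mean reads in bone marrow and 1799.2 in pleural cavity eosinophils, 7.08-fold lower with fractional reads, and its partner Chchd6 was 3.18-fold lower. Bnip3, a mitophagy receptor, had 661 and 1712 mean reads (0.93), and Mff, a fission factor, had 1688 and 3223.5 (0.49). Of 37 OXPHOS assembly and related factors 7 were listed and 5 were higher, with Uqcc2 at 0.68, Ttc19 at 0.64, Cmc2 at 0.60 and Higd1a at 0.59, of which Ttc19 and Higd1a had fractional reads. The fifth, Coa3, was at 0.40 and turned to -0.05 under median ratio scaling; it is named for that change, after its values were seen. Bcs1l, which inserts the Rieske protein into complex III, was 2.46-fold lower, and Acad9, a complex I assembly factor, 2.09-fold lower with fractional reads.

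**Figure D5:**
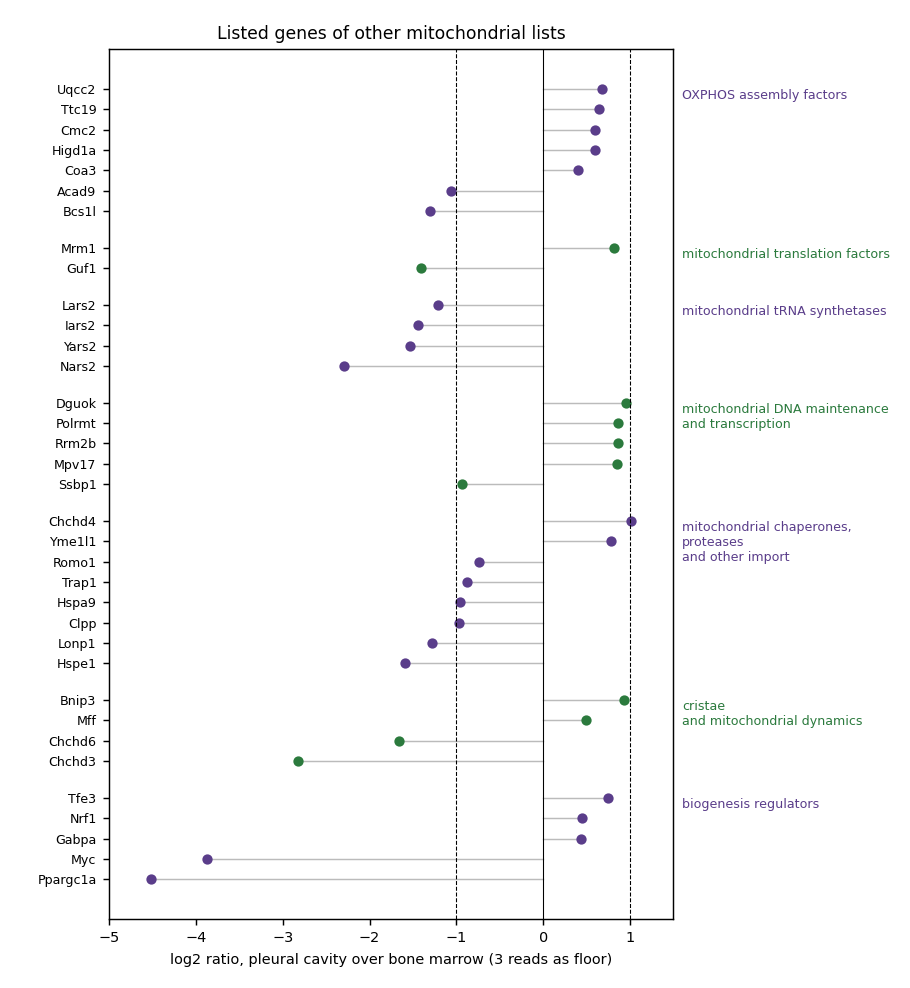
The log2 ratio of pleural cavity over bone marrow eosinophils (horizontal axis, 3 reads as floor) of the 35 listed genes of the 7 other mitochondrial lists, 1 row per gene, with dashed lines at 2-fold. All 4 tRNA synthetases lie left of -1, and 4 of 5 genes of mitochondrial DNA maintenance and transcription lie between 0.85 and 0.95.

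Length and base composition, which the rule did not use, are given as a description. The median coding length was 337.5 bases among 18 higher members and 540 among 27 lower members, with Timm10b left out, and across these 45 genes Spearman's rho between coding length and the log2 ratio was -0.23, a description across genes that share libraries. Within groups that rho was -0.09 over the 21 members of the respiratory chain and 0.13 over the 16 of the mitochondrial ribosome. Over all 5640 listed genes with a length the median coding lengths were 1305 bases for higher and 1353 for lower genes. Among those that reached 100 mean reads in each tissue they were 1287 and 1251. For GC content of the transcripts rho was 0.11 over the same 45 genes, 0.23 over the 5640 listed genes and 0.08 over 3523 listed genes at that read level. Within the members it was 0.44 over the 21 of the respiratory chain and 0.05 over the 16 of the mitochondrial ribosome. The part of length or base composition in the ratios was not tested.

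Markers of other cells moved with tissue in the same table. All 12 neutrophil and precursor markers were listed and lower, and together they held 11.7% of listed reads from bone marrow and 0.229% of those from the pleural cavity, with 0 of the 12 at 0 reads in either tissue. Retnlg alone had 33927 of the pleural cavity reads, and without it, an alternative chosen after seeing the data, the shares were 10.5% and 0.0165%. All 8 markers of cycling cells were lower, at 0.212% and 0.008%, as were all 6 basophil and mast cell markers, at 0.0968% and 0.0011%. Of the other lists, 5 of 7 macrophage markers (3 higher), 3 of 7 lymphocyte markers (1 higher) and 2 of 5 erythroid markers (0 higher) were listed. The macrophage marker Csf1r had 3973.5 mean reads in bone marrow and 20627.5 in pleural cavity eosinophils (3.83-fold higher). C1qb was 3.42-fold and C1qa 1.89-fold higher, while Lyz2 (fractional reads) was 2.35-fold and Mrc1 2.41-fold lower. Of the 8 eosinophil markers 7 were listed. Siglecf, Ccr3 and Gata1 had more reads in pleural cavity eosinophils, with ratios of 1.15, 1.54 and 1.11, and each had at least 2477 mean reads in either tissue. Under median ratio scaling their ratios were 0.71, 1.09 and 0.66. The 4 lower ones were the granule genes Epx (-9.11) and Prg2 (-8.99), with Ear1 (-8.94) and Alox15 (-1.85), both with fractional reads. The part of other cells and of dividing precursors in the ratios of the mitochondrial genes was not tested.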

How the data were processed

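Eosinophils of bone marrow and pleural cavity were sequenced as 2 libraries per tissue and grouped by the titles of the samples. The authors trimmed reads with SOAPnuke, used HISAT2 (2.1.0) for alignment to GRCm38, Bowtie2 (2.2.5) for mapping to genes and RSEM (1.2.8) for abundance, and tested the tissues against each other with DESeq2. The deposited table holds expected counts as the authors' mean per tissue, not scaled for depth. Its other columns, the authors' log2 ratio, p-value and q-value, were not used, and the number of unused columns of single samples was 0. The planned count test per library could not be run on means, so ratios are descriptions.

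Means under 3 reads were raised to 3 before the log2 ratio. Fractional means were those that are no multiple of 0.5, 25.8% of the listed genes. The members and all lists were chosen with earlier results of these data known. Named genes were the largest ratios of each class in each direction, all members of small classes and tissue-type paralogs, and up to 4 genes a direction in the other lists. An item of the other lists is not reported here. Positions and class sizes came from RefSeq (GRCm38.p6), and lengths from GENCODE on the same assembly, where 5656 listed genes matched. The calculation of the ratio was checked on simulated counts whose depth ratio was known. That check could not cover the choice of scaling, the selection of listed genes or differences between libraries. Calculations used Python 3.11.15, pandas 2.3.3 and numpy 2.4.6. Alternatives covered scaling, floor, fold threshold, a filter of 10 mean reads and fractional reads.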

Additional observations from a re-analysis of the deposited data

How the results depend on the processing

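No paired analysis was possible because the columns of means carry no replicate number, and leaving out a library, another tool and the test per library were not run for the same reason. Depth per library is unknown. Values follow the order unscaled, total without the most abundant and marker genes, and median ratio. The median log2 ratio of all members, -0.63, became -0.19, -0.85 and -1.07. That of the respiratory chain, -0.58, became -0.14, -0.80 and -1.02. That of the mitochondrial ribosome, -0.94, became -0.50, -1.15 and -1.38. That of import, 0.41, became 0.85, 0.19 and -0.0373, so its direction was turned by the median ratio. The median of all listed genes, -1.02, became -0.58, -1.24 and -1.47. Members at least 2-fold lower, 11, became 3, 18 and 25, and members at least 2-fold higher, 0, became 7 without scaling and stayed 0 under the other scalings. These shifts follow from the construction, since a scaling adds the same constant to every ratio. At 1.5-fold 24 members were lower and 6 higher, and at 3-fold 3 were lower. With a minimum of 10 mean reads in each tissue, which removes Cox6b2, the medians were -0.60 for all members and -0.56 for the respiratory chain. Without the 6 members with fractional reads they were -0.56 for all members and -0.85 for the mitochondrial ribosome. A floor of 1 read changed no member.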
